A study of Mus musculus with 9 samples.

Results

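The 10 genes described here, Fos, Fosb, Jun, Junb, Jund, Atf3, Egr1, Ier2, Ier3 and Myc, are immediate-early genes and their close relatives. They were found by matching the RefSeq accession of each probe, without its version, to these 10 symbols. All 10 genes were on the array, with 1 probe each, among the 20972 gene symbols that could be matched. Livers of 9 male mice aged 20 weeks were measured on 1-colour Agilent arrays, with 1 array per mouse and 3 mice per group. STAM mice are C57B/6J mice that received low-dose streptozotocin just after birth and a high fat diet after weaning, and they develop diabetes, steatohepatitis and liver tumours. STAM-NON mice received no further treatment. STAM-INS mice were the same model with injections of insulin glargine. Normal mice ate chow and received no streptozotocin, so that they differed from both STAM groups in the toxin and in the diet together. Whether the piece of liver taken from a STAM mouse held tumour is not given in the sources used here.

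Immediate-early genes are transcribed within minutes of a growth factor, cytokine or stress signal, because the factors that switch them on are already present in the cell. Fos proteins pair with Jun proteins to form the transcription factor AP-1, Egr1 is a zinc finger factor of the same early wave, and Myc pairs with Max to drive genes of growth and biosynthesis. In the liver these genes are best known from regeneration after partial hepatectomy, from inflammation and from tumour formation, and their transcripts are short-lived.

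Promoter windows from RefSeq (GRCm38.p6), each running from 250 bases before the annotated start to 50 bases from it, were found for 7 of the 10 genes. The windows of Fos, Atf3 and Ier3 are shown because these genes had the largest differences between STAM-NON and Normal livers. Fos lies on the plus strand at chr12:85473640-85473939, Atf3 on the minus strand at chr1:191183284-191183583 and Ier3 on the plus strand at chr17:35821463-35821762. Each sequence is written 5′ to 3′ on the strand of the gene, and capitals mark a match to any motif searched.
Fos: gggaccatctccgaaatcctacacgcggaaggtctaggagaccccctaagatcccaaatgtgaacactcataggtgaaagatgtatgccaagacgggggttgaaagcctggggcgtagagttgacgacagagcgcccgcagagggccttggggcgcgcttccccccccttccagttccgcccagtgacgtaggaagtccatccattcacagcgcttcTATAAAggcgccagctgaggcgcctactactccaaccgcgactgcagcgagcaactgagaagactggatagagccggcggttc
Atf3: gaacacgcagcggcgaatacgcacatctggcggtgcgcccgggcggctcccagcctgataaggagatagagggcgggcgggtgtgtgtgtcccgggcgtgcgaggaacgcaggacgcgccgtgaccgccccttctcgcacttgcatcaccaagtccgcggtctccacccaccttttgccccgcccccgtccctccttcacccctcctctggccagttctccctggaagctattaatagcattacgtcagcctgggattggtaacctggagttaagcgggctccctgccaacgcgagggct
Ier3: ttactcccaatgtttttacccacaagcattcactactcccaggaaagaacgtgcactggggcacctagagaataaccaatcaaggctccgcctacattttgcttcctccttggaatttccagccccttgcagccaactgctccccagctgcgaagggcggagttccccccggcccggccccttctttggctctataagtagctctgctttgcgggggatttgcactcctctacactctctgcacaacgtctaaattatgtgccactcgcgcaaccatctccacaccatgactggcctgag
The motifs were the AP-1 site TGANTCA, the cyclic AMP response element TGACGTCA, the E-box CACGTG, the Egr site GCGNGGGCG, the TATA box TATAAA and the CArG box to which serum response factor binds, each searched on both strands. The only match in the Fos window was a TATA box at position -33 relative to the start. The windows of Atf3 and Ier3 held none of these letters, nor did those of Jun and Jund. Fosb had an Egr site at position -50, and Junb had a TATA box at its annotated start. No matches overlapped. Among all 32841 windows of this length, 7.81% held the AP-1 site, 1.79% the cyclic AMP response element, 7.15% the E-box, 5.55% the Egr site, 13.6% the TATA box and 1.63% the CArG box. These matches describe letters in a short window and say nothing about binding.

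Levels are given as centred log2 signal, the log2 processed signal of a probe after subtraction of its array's 75th percentile, so that a value of 0 lies at that percentile. The level of a probe was compared only with the same probe on other arrays. A difference, always on the log2 scale, is positive where the group named in front is higher. Between 46.2% and 65.0% of the spots on an array were well above background. The 6 STAM arrays shared 1 slide and the 3 Normal arrays a separate one, so slide and group cannot be told apart in any comparison with Normal. The median difference over all 26278 tested probes between STAM-NON and Normal was -0.13, and it was 0.17 when arrays were centred on spike-in controls. With that centring the probes past the threshold between STAM-NON and Normal turned from 1655 higher and 2565 lower to 2370 higher and 446 lower. The same split was 2093 to 1061 when the percentile was restricted to probes detected on every array, and 1537 to 1425 with quantile normalisation. For STAM-INS against Normal, 1355 higher and 2292 lower became 974 and 895 with spike-in centring, and 1677 and 1300 under the restricted percentile. The mean level of 7 hepatocyte markers was between 8.34 and 8.42 in Normal mice. On this 75th percentile scale it was lower in every STAM mouse, between 7.87 and 8.28 in STAM-NON and between 8.19 and 8.28 in STAM-INS. These averages were taken on that scale only, and another centring can change the order of the mice.

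The comparison of STAM-NON with Normal livers asked which early-response genes differ in untreated disease. Of the 10 genes, 4 passed the threshold of an adjusted p under 0.05, and all 4 were higher in STAM-NON: Fos, Atf3, Ier3 and Jund. Among all tested probes 16.1% passed, 6.3% as higher and 9.76% as lower. The 6 others were Jun, which was higher in each STAM-NON mouse but did not pass, Junb, Fosb, Egr1, Ier2 and Myc. In 5 of the 10 genes every STAM-NON mouse lay above every Normal mouse, against 13.2% of all tested probes. Fos counts among the 4 and among these 5, although it entered the test only through the STAM-NON arrays. Where a probe had to be well above background on all 9 arrays, 8 genes were tested and 3 passed: Jund, Atf3 and Ier3. The median difference of the 10 genes was 0.52. Of the 10 genes, 0 passed when Normal 2 or Normal 3 was left out, and 2, Jund and Ier3, when Normal 1 was. Without Normal 2 or Normal 3 the share of all probes past the threshold dropped too, to 4.2% and 3.56%.

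**Figure D1:**
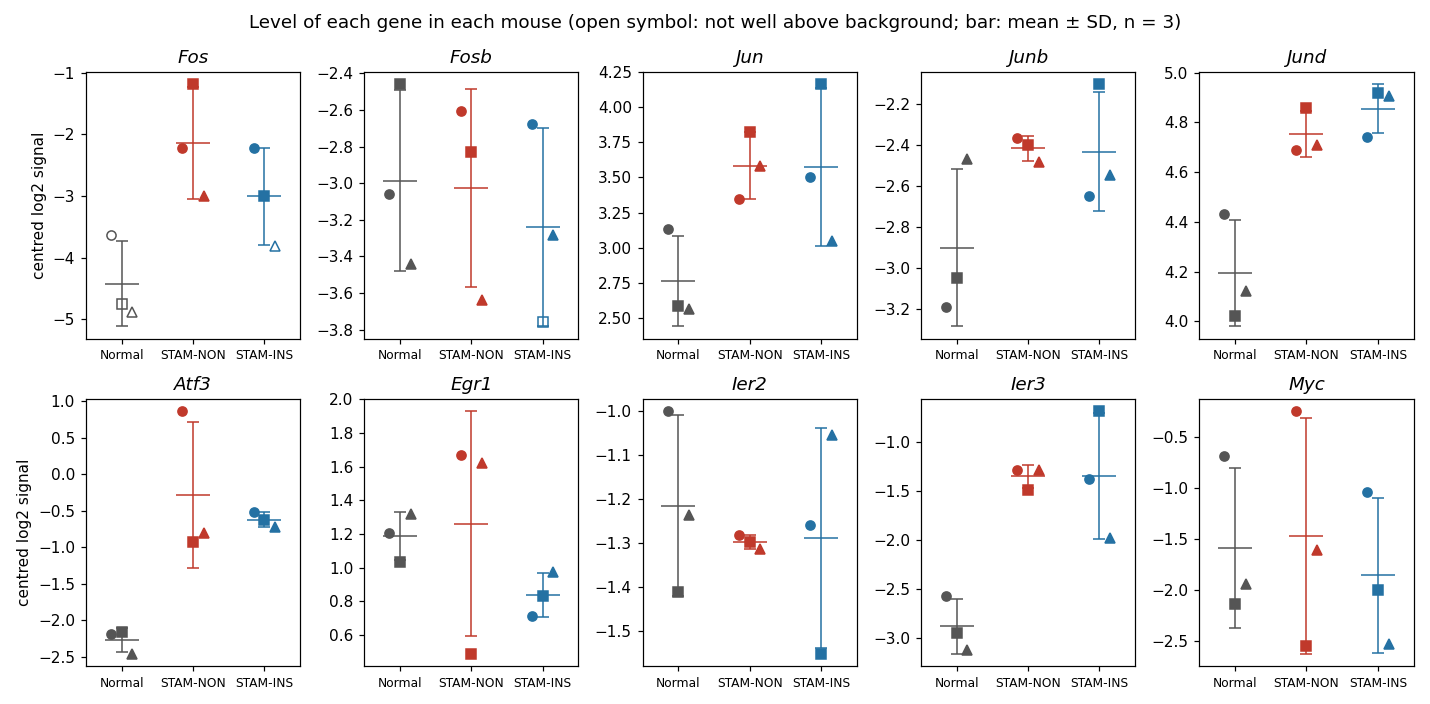
Centred log2 signal of each of the 10 genes (vertical axis, a scale of its own in each panel) in the 3 Normal, 3 STAM-NON and 3 STAM-INS mice, with circles, squares and triangles for mice 1, 2 and 3, and bars for the mean ± SD. The STAM points of Atf3, Ier3 and Jund lie above all Normal points, those of Ier2, Fosb and Myc overlap with them, those of Egr1 lie on both sides of them, and the open Fos symbols are arrays on which its probe was not well above background.

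Fos, the founding member of its family, cannot bind DNA alone and needs a Jun partner. Its centred log2 signal was -2.23, -1.18 and -3.00 in STAM-NON mice 1, 2 and 3, -2.22, -2.99 and -3.80 in STAM-INS mice and -3.63, -4.76 and -4.88 in Normal mice. Every STAM-NON mouse was above every Normal mouse, while STAM-INS overlapped with both other groups. The means were -2.14 ± 0.91 for STAM-NON and -4.42 ± 0.69 for Normal (SD, n = 3 each). The difference of 2.29 (SE 0.56, 95% interval 1.0 to 3.57) passed the test with an adjusted p of 0.0319. Its probe has 10 spots on each array, of which 10 were well above background on every STAM-NON array, but only 1, 0 and 0 on the Normal arrays. Fos was therefore not well above background in Normal liver, and it entered the test only through the STAM-NON arrays, so that a difference was built into its entry. With each Normal array counted at no less than its lowest detected signal, the mean STAM-NON level of Fos was 3.33-fold higher. This floored fold carries no sampling error, and the 95% interval of the unfloored difference starts at 2.01-fold. The lowest detected signal varied between arrays, from -4.96 in STAM-INS 1 to -3.68 in Normal 1. The adjusted p rose above the threshold without STAM-NON 1 (0.0781), STAM-NON 2 (0.0630), STAM-INS 2 (0.0533), Normal 1 (0.0505), Normal 2 (0.0928) or Normal 3 (0.0981). After normexp background correction the difference was 0.68 with an adjusted p of 0.0682, and with quantile normalisation it was 2.16 with an adjusted p of 0.0572. With the slide row as a block, a fit described in the closing section, it was 1.11 with an adjusted p of 0.602.

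**Figure D2:**
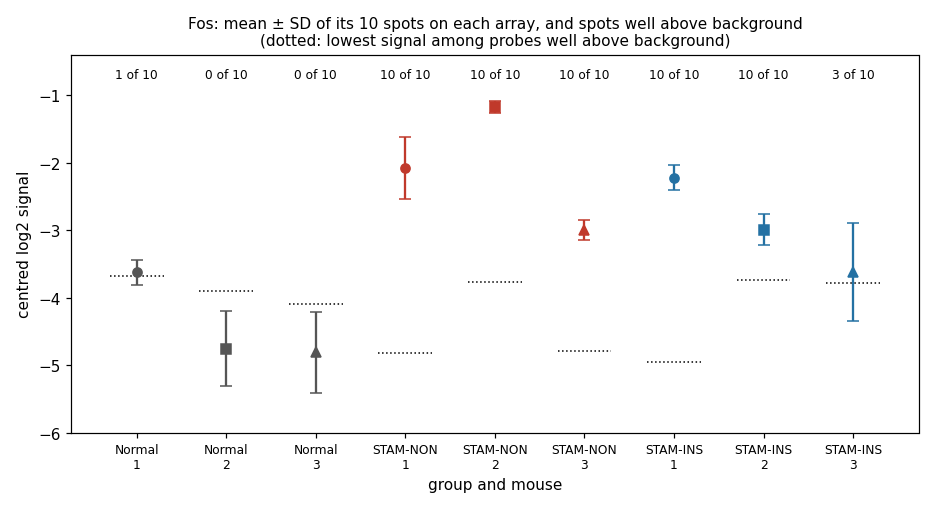
Mean ± SD of the 10 Fos spots (vertical axis, centred log2 signal) on each of the 9 arrays (horizontal axis), with the number of spots well above background written above and the lowest detected signal of the array as a dotted line. All 10 spots cleared background on the 3 STAM-NON arrays and on STAM-INS 1 and 2, against 3 on STAM-INS 3 and 1, 0 and 0 on the Normal arrays.

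Fosb is a close relative of Fos that also pairs with Jun proteins. It read -2.61, -2.83 and -3.64 in STAM-NON mice, -2.68, -3.76 and -3.28 in STAM-INS mice and -3.06, -2.46 and -3.44 in Normal mice. The groups overlapped throughout, with the highest of the 9 values in Normal 2 and the lowest in STAM-INS 2, where the probe was not well above background. The difference between STAM-NON and Normal was -0.04 (SE 0.37, adjusted p = 0.950), with an interval from -0.89 to 0.82. Its direction turned with spike-in centring, to 0.26.

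Jun is the partner that Fos requires and can also pair with itself. It read 3.34, 3.83 and 3.58 in STAM-NON mice, 3.51, 4.17 and 3.05 in STAM-INS mice and 3.13, 2.58 and 2.57 in Normal mice. The STAM-NON mice lay above all Normal mice, by 0.21 at the nearest, whereas STAM-INS 3 lay just below Normal 1. The mean was 3.58 ± 0.24 for STAM-NON and 2.76 ± 0.32 for Normal (SD, n = 3 each). This difference of 0.82 (SE 0.29, interval 0.16 to 1.48) did not pass, with an adjusted p of 0.0827. It did pass with spike-in centring, at 1.12 and an adjusted p of 0.0454, and after normexp background correction, at 0.97 and an adjusted p of 0.0452.

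Junb often opposes Jun at shared target genes and is also induced by cytokines. It read -2.37, -2.40 and -2.48 in STAM-NON mice, -2.65, -2.10 and -2.54 in STAM-INS mice and -3.19, -3.05 and -2.47 in Normal mice. The STAM-NON mice lay within 0.12 of each other, and only Normal 3 reached their range. The difference from Normal was 0.48 (SE 0.21, interval 0.00 to 0.97) and did not pass, with an adjusted p of 0.141.

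Jund is the Jun protein that many resting cells express steadily, and it is induced less than the others. It read 4.69, 4.86 and 4.71 in STAM-NON mice, 4.74, 4.92 and 4.91 in STAM-INS mice and 4.43, 4.02 and 4.12 in Normal mice. All 6 STAM mice lay above all 3 Normal mice. The difference of 0.56 between STAM-NON and Normal (SE 0.13, 1.47-fold) was the smallest of the 4 that passed, with an adjusted p of 0.0298. It was higher in 3 of 3 STAM-NON mice than in any Normal mouse, by 0.26 at the nearest. The call ended with median centring (0.41, adjusted p = 0.225), with only the arrays of the 2 groups in the fit (adjusted p = 0.0607), and without STAM-NON 1 (0.0653), STAM-NON 2 (0.0598), STAM-NON 3 (0.0626), Normal 2 (0.0906) or Normal 3 (0.0946).

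Atf3 is a stress-induced factor that pairs with Jun proteins and often represses inflammatory genes. It read 0.87, -0.93 and -0.80 in STAM-NON mice, -0.52, -0.63 and -0.73 in STAM-INS mice and -2.18, -2.17 and -2.46 in Normal mice. Every STAM mouse was above every Normal mouse, and STAM-NON 1 stood above all the others. The means were -0.29 ± 1.0 for STAM-NON and -2.27 ± 0.16 for Normal (SD, n = 3 each). The difference of 1.98 (SE 0.42, interval 1.03 to 2.93, 3.95-fold) passed with an adjusted p of 0.0217. The call was kept when any single STAM array was left out, and it ended without Normal 1 (0.0625), Normal 2 (0.0616) or Normal 3 (0.0702). After normexp background correction the difference shrank to 1.25 and still passed (adjusted p = 0.0417).

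Egr1 shares many inducing signals with Fos through serum response factor. It read 1.67, 0.49 and 1.62 in STAM-NON mice, 0.71, 0.83 and 0.97 in STAM-INS mice and 1.21, 1.03 and 1.32 in Normal mice. The STAM-NON mice fell on both sides of the other groups, with STAM-NON 2 the lowest of all 9 mice and STAM-NON 1 the highest. The difference between STAM-NON and Normal was 0.07 (SE 0.29, adjusted p = 0.871), with an interval from -0.59 to 0.74. It was -0.08 with median centring.

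Ier2 encodes a nuclear protein named for its early induction. It read -1.28, -1.30 and -1.31 in STAM-NON mice, -1.26, -1.55 and -1.05 in STAM-INS mice and -1.0, -1.41 and -1.23 in Normal mice. The STAM-NON mice lay inside the range of both other groups. Their SD was 0.017, and only 0.438% of tested probes had a smaller one in that group. The difference from Normal was -0.08 (SE 0.16, adjusted p = 0.730), with an interval from -0.44 to 0.28, and it was 0.22 with spike-in centring.

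Ier3, an early gene that protects cells from apoptosis and is a target of NF-κB and p53, was one of the 4 that passed. It read -1.28, -1.49 and -1.28 in STAM-NON mice, -1.37, -0.69 and -1.98 in STAM-INS mice and -2.57, -2.95 and -3.12 in Normal mice. All STAM mice lay above all Normal mice, and STAM-NON cleared Normal by 1.09. The means were -1.35 ± 0.12 for STAM-NON and -2.88 ± 0.28 for Normal (SD, n = 3 each). The difference of 1.53 (SE 0.30, interval 0.85 to 2.21, 2.89-fold) had the lowest adjusted p of the 10 genes in this comparison, at 0.0176. The call ended without STAM-NON 1 (0.0531), Normal 2 (0.0582) or Normal 3 (0.0624). After normexp background correction the difference shrank to 0.78, below the interval given, and still passed (adjusted p = 0.0335).

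Myc varied more between mice of a group than between groups. It read -0.24, -2.55 and -1.60 in STAM-NON mice, -1.03, -2.0 and -2.53 in STAM-INS mice and -0.68, -2.13 and -1.94 in Normal mice. Each group held both a high and a low mouse, and all 3 groups overlapped. The SD was 1.16 for STAM-NON, 0.76 for STAM-INS and 0.79 for Normal (n = 3 each), larger than the SD of 97.9%, 95.7% and 97.1% of the tested probes in the same group. The 2 Myc spots of an array lay close together, with an SD between 0.0019 and 0.28. The difference between STAM-NON and Normal was 0.12 (SE 0.64, adjusted p = 0.906), and its interval from -1.34 to 1.58 leaves room for a change of either sign. Without STAM-NON 1 it was -0.49.

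Insulin-treated STAM livers were compared with untreated ones to see whether these genes responded to insulin. None of the 10 genes passed, either by the adjusted p in limma or at an unadjusted p under 0.05, and the lowest adjusted p was 0.697, that of Fos. Of all tested probes only 0.0913% passed. In 0 of the 10 genes were the groups apart, while 4.92% of tested probes were apart with STAM-INS lower and 7.24% with STAM-INS higher. Fos averaged -3.01 ± 0.79 in STAM-INS against -2.14 ± 0.91 in STAM-NON, a difference of -0.87 whose interval ran from -2.15 to 0.41. It was -0.39 without STAM-NON 2 and -0.47 without STAM-INS 3. The difference of Egr1 was -0.42, with an interval from -1.09 to 0.24, and it was -0.81 without STAM-NON 2, -0.22 without STAM-NON 1 and -0.24 without STAM-NON 3. For Atf3 it was -0.34, from -1.29 to 0.61, and it became 0.24 without STAM-NON 1. For the remaining genes, the differences lay between -0.39, that of Myc, and 0.10, that of Jund. The narrowest interval was that of Jund, from -0.20 to 0.41, and the widest that of Myc, from -1.85 to 1.07. With 3 mice per group, changes inside these intervals are not excluded. All 6 arrays of this comparison lay on 1 slide. The STAM-NON arrays and STAM-INS 1 lay in its row 1, and STAM-INS 2 and STAM-INS 3 in row 2. Slide row and treatment can thus be told apart only through STAM-INS 1.

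**Figure D3:**
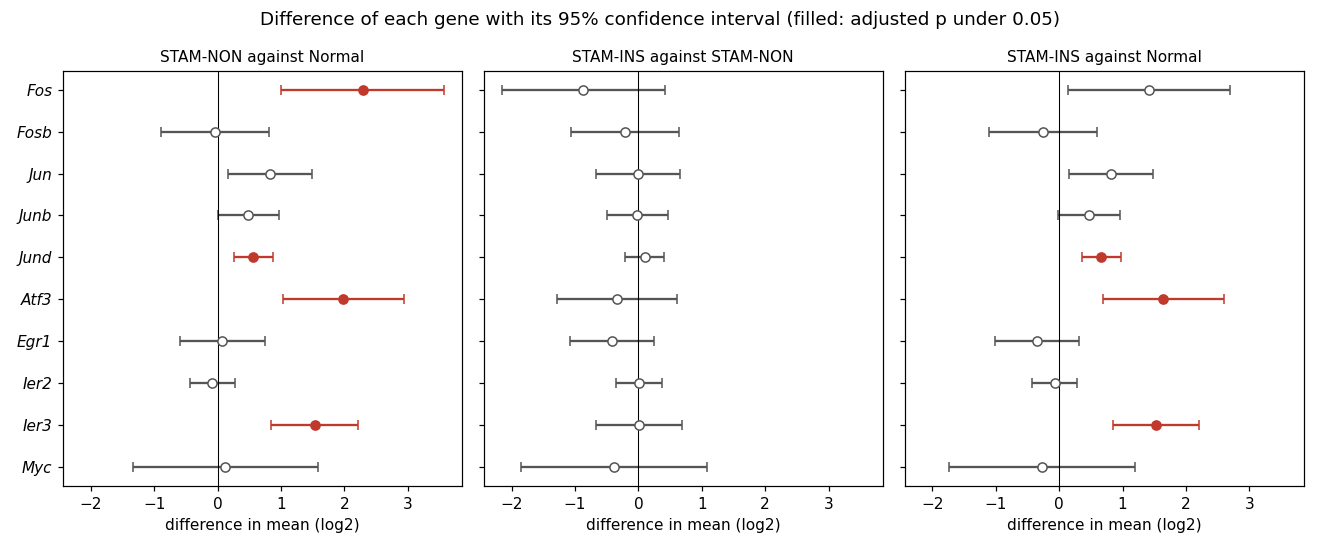
Difference in mean centred log2 signal (horizontal axis) of each of the 10 genes in the 3 comparisons, with bars for the 95% interval and filled symbols for an adjusted p under 0.05. Filled symbols are seen for Fos, Jund, Atf3 and Ier3 in STAM-NON against Normal and for Jund, Atf3 and Ier3 in STAM-INS against Normal, and every interval of STAM-INS against STAM-NON includes 0.

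Insulin-treated STAM livers were also set against Normal livers, a comparison that shares its Normal mice with the one above. Of the 10 genes, 3 passed, all higher in STAM-INS, where 13.9% of all tested probes passed, 5.16% as higher and 8.72% as lower. Ier3 was higher by 1.53 (SE 0.30, adjusted p = 0.0163), Atf3 by 1.64 (SE 0.42, adjusted p = 0.0364) and Jund by 0.66 (SE 0.13, adjusted p = 0.0186). These correspond to 2.89-fold, 3.13-fold and 1.58-fold. In the same 3 genes every STAM-INS mouse lay above every Normal mouse, against 15.1% of tested probes. The 3 STAM-INS values of Atf3 spanned only 0.21, against 1.79 in STAM-NON. Fos, with a difference of 1.42 (SE 0.56), did not pass (adjusted p = 0.122). Its probe was well above background on 2 of 3 STAM-INS arrays and on no Normal array. The floored fold of Fos was 1.82, without sampling error, and STAM-INS 3, at -3.80, lay below Normal 1, at -3.63. The difference of Jun was 0.81 and that of Junb 0.47, with adjusted p of 0.0933 and 0.166. Egr1 was the 1 gene with all STAM-INS mice below all Normal mice, by 0.06 at the nearest, and 29% of tested probes were apart in that direction. Its difference of -0.35 (SE 0.29) did not pass (adjusted p = 0.432). Fosb, Ier2 and Myc differed by -0.25, -0.07 and -0.27 and did not pass. The count was 0 without Normal 2 or Normal 3, and 1, that of Ier3, without STAM-INS 2 or STAM-INS 3. The Atf3 call ended when any STAM-INS or Normal array was left out, with adjusted p between 0.0804 and 0.110. It also ended with spike-in centring (0.0710) and normexp correction (0.0880), and the Jund call ended with median centring (0.171). After normexp correction the difference was 0.72 for Ier3 and 0.96 for Atf3.

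The genes did not peak in the same mouse. STAM-NON 1 had the highest level of the 9 mice for Atf3, Egr1 and Myc, and STAM-NON 2 for Fos. That second mouse also had the lowest level of the 9 for Egr1 and Myc. STAM-INS 2 was highest for Jun, Junb, Jund and Ier3 and lowest for Fosb and Ier2. Among Normal mice, Normal 3 was lowest for Fos, Jun, Atf3 and Ier3, Normal 2 was highest for Fosb and lowest for Jund, and Normal 1 was highest for Ier2 and lowest for Junb. STAM-NON 3, STAM-INS 1 and STAM-INS 3 held no extreme.

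Across the 9 mice, the genes with the profile closest to Fos among 17350 named probes, by root mean square difference after each profile was centred on its mean, were Iqca (0.34), Hcar2 (0.37) and Lair1 (0.39). The SD of Fos itself over the 9 mice was 1.22. Closest to Jun (SD 0.53) were Txndc11 (0.18), Tmed8 (0.21) and Zbp1 (0.22). For Egr1 (SD 0.40) they were Septin4 (0.12), Cracr2b (0.13) and Rbm3 (0.15). For Myc (SD 0.81) they were Bex4 (0.31), Zfp428 (0.44) and Id1 (0.45). These are descriptions over 9 arrays that share groups and slides.

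Other members of the AP-1 family had calls in both directions. Of 13 tested, 3 were higher and 1 lower in STAM-NON than in Normal. Among all tested probes 6.3% passed as higher and 9.76% as lower. Batf and Batf3, which pair with Jun proteins in immune cells, were higher by 1.38 (adjusted p = 0.0164) and 0.93 (adjusted p = 0.0176). Fosl2, a Fos relative, was higher by 0.92 (adjusted p = 0.0377), and Atf2, which binds the cyclic AMP response element with Jun, fell by 0.47 (adjusted p = 0.0256). The median of the list was 0.35. Set against Normal, STAM-INS livers had higher Batf, Batf3 and Fosl2, by 1.37, 1.25 and 0.89. In that comparison 5.16% of all tested probes passed as higher and 8.72% as lower. Maff, a small Maf protein, fell by 1.78 there (adjusted p = 0.0042), while its difference in STAM-NON against Normal was -0.17. Between STAM-INS and STAM-NON, Maff differed by -1.61 and did not pass (adjusted p = 0.0763). The count of 4 in STAM-NON dropped to 2 without Normal 3, to 1 without STAM-NON 1, STAM-NON 3 or Normal 2 and to 0 without Normal 1, and the count of 4 in STAM-INS to 2 without Normal 1 or Normal 2.

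Other early-response genes, such as feedback phosphatases and growth-arrest genes, were higher where they passed in STAM-NON. Of 35 tested, 5 passed, which is close to the 16.1% of all tested probes that did. All 5 were higher than in Normal, a direction in which 6.3% of all probes passed, and the list median was 0.35. Btg2, an antiproliferative gene, rose by 2.28 (adjusted p = 0.0170), and Dusp2, a phosphatase of MAP kinases, by 1.58 (adjusted p = 0.0270). Tnfaip3, a brake on NF-κB, rose by 1.24 (adjusted p = 0.0220), and Ier5, an early gene related in sequence to Ier2, by 1.20 (adjusted p = 0.0196). Against Normal, 5.16% of all tested probes passed as higher in STAM-INS and 8.72% as lower. Of this list, 4 were higher and 1 lower. They were Gadd45g, a growth-arrest gene, at 2.59 (adjusted p = 0.0311), Btg2 at 2.22, Ier5 at 1.72 and Socs3, a brake on cytokine signalling, at 1.62, while Nfkbia, the inhibitor of NF-κB, fell by 0.71 (adjusted p = 0.0168). The count of 5 in STAM-NON was 8 without STAM-NON 2, 2 without STAM-NON 1, 1 without STAM-NON 3, Normal 1 or Normal 2, and 0 without Normal 3, and that of 5 in STAM-INS was 3 without STAM-INS 2 or Normal 2 and 2 without Normal 3.

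The kinases, receptors and SRF cofactors that act upstream of these genes gave 1 call in all. Of all tested probes 16.1% passed in STAM-NON against Normal and 13.9% in STAM-INS against Normal. None of the 21 tested passed in limma in STAM-NON against Normal, where 9 had an unadjusted p under 0.05, although 3 passed without STAM-NON 2. Their median difference from Normal was -0.20, beside -0.13 for all probes. In STAM-INS against Normal only Met, the receptor of hepatocyte growth factor, passed, and it fell by 0.55 (adjusted p = 0.0400). That call ended without any 1 of the STAM-INS or Normal arrays, which left 0.

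Myc partners and target genes had calls in both comparisons with Normal. Of all tested probes, 9.76% passed as lower in STAM-NON and 8.72% in STAM-INS, each against Normal. Of the 11 tested genes of the Myc and Max network, 1 passed in STAM-NON against Normal. This was Mlxipl, the carbohydrate response factor ChREBP, which fell by 1.18 (adjusted p = 0.00831). In STAM-INS against Normal, Mnt, a repressor that pairs with Max, fell by 0.75 (adjusted p = 0.0228) and Mlxipl by 0.62 (adjusted p = 0.0425). Of 33 tested Myc target genes, only Hspd1, a mitochondrial chaperonin, passed in STAM-NON, where it fell by 0.55 (adjusted p = 0.0446). In STAM-INS against Normal, Hspd1 fell by 0.67 and Odc1, the rate-limiting enzyme of polyamine synthesis, by 0.71 (adjusted p = 0.0155). The median of the Myc targets was -0.13 in STAM-NON against Normal, equal to that of all probes at 2 decimals. These calls were sensitive to single arrays: 0 Myc targets passed in STAM-NON when any Normal array, STAM-NON 1, STAM-NON 3, STAM-INS 2 or STAM-INS 3 was left out, and in STAM-INS 0 of the network passed without any 1 Normal array, STAM-INS 2 or STAM-INS 3. The network count was 3 in STAM-NON without STAM-NON 2.

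AP-1 target genes were the list with the most calls in STAM-NON. Of 20 listed genes 10 were tested, and 6 of these were higher than in Normal while none was lower, with a list median of 1.18. Among all tested probes 6.3% passed as higher and 9.76% as lower. Genes of this list that were too dim to be tested are not in that median. Timp1, an inhibitor of matrix proteases, averaged -0.96 in STAM-NON and -4.56 in Normal, where it was not well above background. It therefore entered the test only through STAM arrays. Timp1 passed (adjusted p = 0.0163), with a floored fold of 7.60 that carries no sampling error. Plaur, the urokinase receptor, was higher by 2.01 (adjusted p = 0.0454), Ccl2, a chemokine for monocytes, by 1.65 (adjusted p = 0.0381) and Spp1, osteopontin, by 1.50 (adjusted p = 0.0422). Against Normal, 2 genes passed as higher in STAM-INS, Timp1 with a floored fold of 4.33 (adjusted p = 0.0322) and Ccl2 by 1.87 (adjusted p = 0.0281). In that comparison 5.16% of all tested probes passed as higher. Between STAM-INS and STAM-NON the list median was -0.29. The count of 6 in STAM-NON was 11 without STAM-NON 2, when more genes were tested, 2 without STAM-NON 3 or STAM-INS 2, 1 without Normal 1 and 0 without STAM-NON 1, Normal 2 or Normal 3. The count of 2 in STAM-INS was 1 without Normal 1 and 0 without STAM-INS 1, STAM-INS 2, Normal 2 or Normal 3.

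Over the 6 related lists together, 0 of 123 tested genes passed in limma between STAM-INS and STAM-NON, and 11 had an unadjusted p under 0.05.

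**Figure D4:**
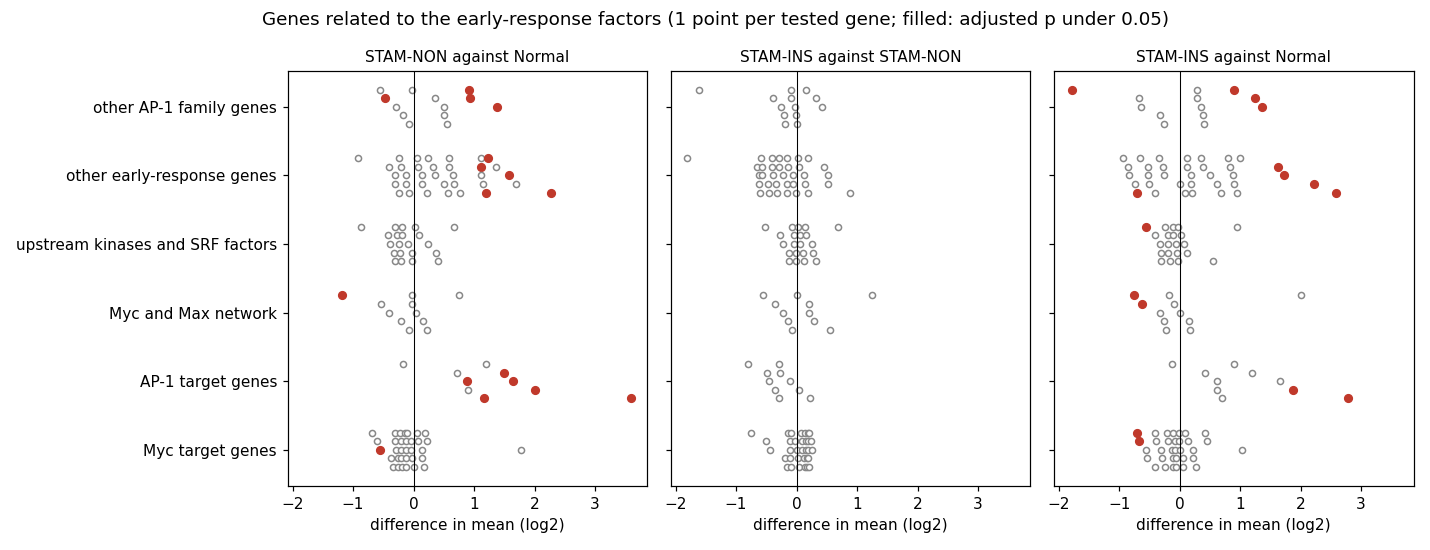
Difference in mean centred log2 signal (horizontal axis) of every tested gene of 6 related lists (rows) in the 3 comparisons, with filled symbols for an adjusted p under 0.05. In STAM-NON against Normal 6 of 10 AP-1 targets are filled and lie to the right of 0, whereas 0 of 21 upstream genes and 1 of 33 Myc targets are filled, and no symbol is filled in STAM-INS against STAM-NON.

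Markers of liver cell types were also compared between the groups. Among all tested probes 6.3% passed as higher and 9.76% as lower in STAM-NON against Normal. In STAM-INS against Normal the shares were 5.16% and 8.72%. The mean level of the 7 tested macrophage markers was between 1.07 and 1.55 in Normal mice, between 1.92 and 2.96 in STAM-NON and between 1.75 and 2.92 in STAM-INS, and 2 of the 7, Trem2 and Clec4f, passed as higher in each STAM group. The 6 tested neutrophil markers averaged between -0.17 and 0.19 in Normal, between 0.32 and 4.40 in STAM-NON and between 1.01 and 2.35 in STAM-INS. Among STAM-NON mice the lowest neutrophil and macrophage averages, 0.32 and 1.92, were those of mouse 2, in which Fos was highest. Mouse 1, in which Atf3 was highest, had the highest macrophage, stellate and biliary averages of that group, 2.96, 1.83 and -0.70. It also had the lowest hepatocyte average, 7.87, an order that another centring of the arrays can change. The highest neutrophil average was that of mouse 3. None of the neutrophil markers passed in STAM-NON, where 4 had an unadjusted p under 0.05, but 5 passed without STAM-NON 2. Elane alone passed in STAM-INS, as lower. Biliary markers, which share Spp1 with the AP-1 targets, averaged between -2.20 and -1.48 in Normal and between -1.37 and -0.70 in STAM-NON, with 3 of 6 higher. One of these, Krt7, was well above background on 1 of 3 Normal arrays and entered the test only through STAM arrays. Of the endothelial markers 1 of 8 passed as higher in STAM-NON, Lyve1, and of the hepatocyte markers 1 of 7, Cps1, passed as lower in each STAM group. None of the 8 stellate cell and fibroblast markers passed, though they averaged between 1.16 and 1.83 in STAM-NON and between 0.38 and 0.99 in Normal, and none of the 4 lymphocyte markers passed, with 5 and 1 at an unadjusted p under 0.05 in limma in STAM-NON. In each marker list no gene was below background on all arrays. Without STAM-NON 2, the markers past the threshold in STAM-NON were 3 for macrophages, 4 biliary, 2 endothelial, 3 for hepatocytes and 3 for stellate cells. The stellate count was 2 without STAM-INS 1. Without STAM-NON 1, STAM-NON 3 or any 1 Normal array, 1 macrophage marker and no endothelial or hepatocyte marker passed, and without STAM-INS 3 again 1 macrophage marker. Biliary markers past it were 1 without Normal 1, STAM-NON 3 or STAM-INS 2 and 0 without Normal 3 or STAM-NON 1. In STAM-INS, the macrophage count was 0 without Normal 1 or STAM-INS 2 and 1 without any other array but STAM-INS 1, Cps1 no longer passed without any 1 Normal array, STAM-INS 2 or STAM-INS 3, and the neutrophil count was 5 without STAM-NON 3 and 0 without Normal 1, Normal 3 or STAM-INS 2. The part of these cell types in the levels of Fos, Atf3, Ier3 and Jund was not tested. In whole liver RNA, more cells of a type and more RNA per cell cannot be told apart.

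**Figure D5:**
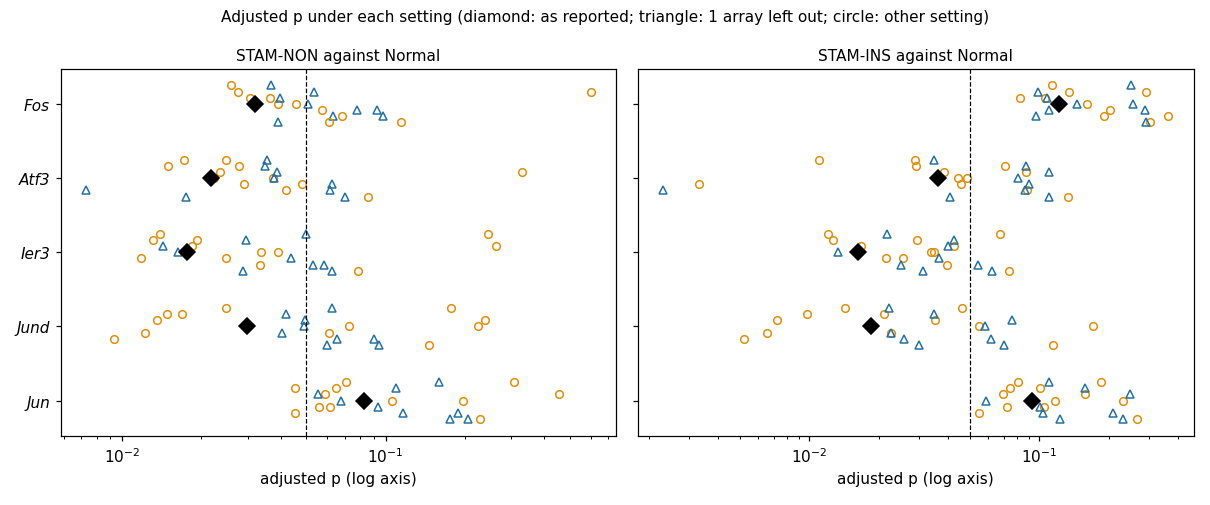
Adjusted p (horizontal log axis) of Fos, Atf3, Ier3, Jund and Jun under each setting, with STAM-NON and STAM-INS each set against Normal, the dashed line at 0.05, a diamond for the reported value, triangles for 1 array left out and circles for other settings. In STAM-NON against Normal the calls of Fos, Atf3, Ier3 and Jund were each kept under some settings and lost under others. The circles include the fit that leaves 1 STAM-NON mouse, whose values say nothing about stability.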

How the data were processed

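Total RNA from 9 mouse livers was hybridised to Agilent SurePrint G3 Mouse arrays with Cy3, 1 array per mouse. The deposited files hold, per the file headers, the intensity of each spot as written by Feature Extraction 11.5.1.1: a background-subtracted processed signal, median spot and background signals, and flags, with no normalisation between arrays. Normalisation and tests of the arrays are not given in the study's methods.

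Groups and replicate numbers came from the sample labels. Control spots and spots with an outlier flag (161 to 217 per array) were left out. Of 55681 probes, 27656 were named by matching accessions to a RefSeq table of GRCm38.p6, used for names only because the array was designed on another build. Values are the log2 processed signal with the 75th percentile of its array subtracted, and with spots of a probe averaged. Testing was limited to the 26278 probes with a share of 0.5 or more of their spots well above background on each of the 3 arrays of some group.

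The 3 comparisons used limma 3.58.1 under R 4.3.3 (lmFit, then eBayes, on all 9 arrays, 6 residual degrees of freedom, two-sided), with Benjamini-Hochberg adjustment over all tested probes and a threshold of 0.05. Intervals are 95% intervals from the same fit. Where no array of a group had a probe well above background, the fold is a floored estimate without sampling error. Each array of that group counted at the probe's signal or at the array's lowest detected signal, whichever was higher. The p-values set each difference against the spread between mice within groups and treat the mice as independent. Nothing says that mice came from separate litters or cages, and shared ones could make the p-values too small. Precision is limited by the number of mice. For lists, each gene was represented by its tested probe with the highest mean, and up to 4 genes past the threshold with the largest difference are named per list and comparison. The 10 genes and all lists were chosen with earlier results of these data known. The code was tested on simulated data. Normexp correction used median spot signals, and alternatives are given in the closing section.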

Additional observations from a re-analysis of the deposited data

How the results depend on the processing

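Each difference was recomputed under 21 alternatives, 9 of which left out 1 array. Of 623 recomputed gene differences, 508 kept their direction and their side of the threshold, 54 lost a call, 2 gained one and 59 changed sign. None of those 59 passed the threshold in its new direction. The causes were not tested. All these counts include a fit, described below, that leaves 1 STAM-NON mouse. Fos, Jund, Atf3 and Ier3 stayed higher in STAM-NON than in Normal under every alternative in which they were tested, as did Jun and Junb. Of the 10 genes, the number past the threshold in STAM-NON against Normal was 4 as reported, 0 without a filter on dim probes and 0 with the slide row as a block, a fit in which STAM-NON (all in row 1) and Normal (all in row 2) are joined only through STAM-INS. It was 1 without the 3 arrays with the most spots well above background (STAM-NON 1, STAM-NON 3 and STAM-INS 1), an alternative chosen after seeing the data. It leaves STAM-NON 2 as the 1 STAM-NON mouse, assumed to vary like the other groups, so its values say nothing about stability. For STAM-INS against Normal it was 3 as reported and 0 without a filter. Leaving out 1 array gave 0 to 4 genes for STAM-NON against Normal and 0 to 3 for STAM-INS against Normal. For STAM-INS against STAM-NON the number was 0 in every alternative.

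With a replicate block, 3 genes passed in STAM-NON against Normal (Fos, Atf3 and Ier3), 2 in STAM-INS against Normal (Atf3 and Ier3) and 0 in STAM-INS against STAM-NON, and the probes past the threshold went from 4220 to 2016, from 3647 to 1872 and from 24 to 6. Deviations of samples with the same number correlated between -0.29 and 0.15. Samples with different numbers were not correlated, so these values cannot tell whether the numbers pair mice. Without a filter, 250 probes passed in STAM-NON against Normal, 572 in STAM-INS against Normal and 7 between the STAM groups. With the slide row as a block they were 15, 2157 and 13.

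Signs changed only for differences that had not passed. In STAM-NON against Normal, Fosb was 0.26 under spike-in centring, 0.13 under the percentile of detected probes and 0.15 without the 3 arrays named above. Ier2 was 0.22 and 0.083 with the same 2 scalings. Egr1 was -0.079 with median centring and -0.70 without the 3 arrays, and Myc was -0.033 and -0.96 there and -1.11 with the slide row as a block. In STAM-INS against STAM-NON, the row block gave 0.35 for Fosb, -0.012 for Jund, -0.024 for Ier3 and 0.43 for Myc. Leaving out the 3 arrays gave 0.075 for Junb, 0.25 for Atf3, 0.41 for Egr1, -0.0056 for Ier2 and 0.28 for Myc. Spike-in centring gave -0.12 for Jund, -0.21 for Ier2 and -0.22 for Ier3, and the percentile over detected probes gave -0.033 for Ier2 and -0.039 for Ier3. Median centring gave -0.0089 and -0.015 for the same genes, normexp correction -0.0042 and -0.054, and quantile normalisation gave -0.0078 for Ier3. In STAM-INS against Normal, Ier2 was 0.0056 under spike-in centring and 0.050 under the percentile of detected probes.

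With 1 array left out, the STAM-NON against Normal difference ranged from -0.26 to 0.27 for Fosb, from -0.13 to 0.46 for Egr1, from -0.18 to 0.025 for Ier2 and from -0.49 to 0.66 for Myc. The STAM-INS against STAM-NON difference ranged from -1.30 to -0.39 for Fos, from -0.81 to -0.22 for Egr1, from -0.52 to 0.045 for Fosb, from -0.31 to 0.25 for Jun, from -0.18 to 0.093 for Junb, from -0.66 to 0.24 for Atf3, from -0.11 to 0.14 for Ier2, from -0.33 to 0.32 for Ier3 and from -0.93 to 0.22 for Myc. The STAM-INS against Normal difference ranged from -0.53 to 0.010 for Fosb, from -0.19 to 0.060 for Ier2 and from -0.68 to 0.18 for Myc. Counts in the related lists ranged from 0 to 11 for AP-1 targets, 0 to 8 for other early-response genes and 0 to 6 for other AP-1 genes in STAM-NON against Normal, the upper end for AP-1 targets without STAM-NON 2, when more genes were tested. Signals near background limit Fos and Fosb most, since neither was well above background on all 9 arrays.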
